A study of Mus musculus with 15 samples.

Results

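The TFAP2 family holds the AP-2 transcription factors, which are encoded in the mouse by 5 genes, Tfap2a, Tfap2b, Tfap2c, Tfap2d and Tfap2e. All 5 members were found by symbol among the 53337 genes to which the transcript values were summed. The family was chosen by a measured value, the level of Tfap2d in AVP against vehicle males, and by the correlation of its members over the 15 libraries. Those values are therefore described here without a test, and only the female comparison is tested for the members. The female minus male differences hold the male values and are likewise given without a test.

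AP-2 proteins bind DNA as dimers at GC-rich sites and recruit CITED coactivators with the acetyltransferases p300 and CBP, while the KCTD1 and KCTD15 proteins hold their activity down. Tfap2a and Tfap2b are best known for the neural crest and its derivatives and for surface ectoderm, and Tfap2c for trophoblast and for progenitors of the developing cortex. Tfap2d is known from the midbrain and the retina, and Tfap2e from the projection neurons of the olfactory bulb.

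Arginine vasopressin (AVP), a peptide hormone, or saline vehicle was infused into C57BL/6J dams through gestation by a minipump under the skin, as a model of preeclampsia. Dorsal forebrain, the primordium of the cortex, was taken from their offspring on embryonic day 18, and each library holds mRNA from 1 brain. The groups were 4 AVP males, 4 vehicle males, 3 AVP females and 4 vehicle females, all C57BL/6J and all of the same age and tissue. By the study's account the brains of a group came from separate litters. Litters were fewer than brains, so males and females shared litters. The labels do not say which male and female libraries did. The AVP females number 1 fewer than the other groups because the study left out an outlier library, which was not analysed here.

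The deposited values are length-scaled transcript abundances (TPM) that add up to a fixed total in each library, and the depth of each library is unknown. Every library carried the dorsal forebrain markers Neurod6 (471 TPM or more) and Emx1 (24.5 TPM or more). The library labelled vehicle male 12 went against its label. Its Xist level was 266 TPM, inside the female range of 174 to 294 TPM, and its 4 Y-linked genes summed to 0.489 TPM, against 102 TPM or more in the other males. The male differences of the members, and the female minus male differences of Tfap2b, Tfap2c and Tfap2d, are given with and without it. AVP female 10 and vehicle female 15 also stood apart, as the values of Tfap2e below show.

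Tfap2d (ENSMUSG00000042596) and Tfap2b (ENSMUSG00000025927) lie in tandem on the plus strand of chromosome 1 (GRCm38), Tfap2d from 19103022 to 19166346 and Tfap2b from 19208914 to 19238576, with 42567 bases between them. Tfap2c (ENSMUSG00000028640) spans 172549593 to 172558622 on the plus strand of chromosome 2. Tfap2e (ENSMUSG00000042477) spans 126716006 to 126736240 on the minus strand of chromosome 4, and Tfap2a (ENSMUSG00000021359) 40715302 to 40738376 on the minus strand of chromosome 13. No 31-base word was shared between the transcripts of any members. Tfap2a shared 0.641% and Tfap2b 0.475% of their words with other genes, and the remaining members shared 0. Reads of the family can thus be assigned to a member with little ambiguity, whereas the transcripts of 1 member overlap one another.

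Tfap2d has 2 annotated transcripts, and the results below turn on how they differ. Tfap2d-201 codes for the protein and has 8 exons. Tfap2d-202, a processed transcript without a coding sequence, shares exons 3 to 7 of Tfap2d-201, the last in part, and starts from a first exon of its own inside an intron. Tfap2d-201 also has sequence of its own, with 69.8% of its 31-base words absent from Tfap2d-202, against 26.9% the other way. The first exon of Tfap2d-202, at chr1:19107181-19107373 on the plus strand, is its only stretch (193 bases) that Tfap2d-201 lacks. It is printed because the split of the gene level between them rests in part on it and its splice junction.
Tfap2d-202 exon 1: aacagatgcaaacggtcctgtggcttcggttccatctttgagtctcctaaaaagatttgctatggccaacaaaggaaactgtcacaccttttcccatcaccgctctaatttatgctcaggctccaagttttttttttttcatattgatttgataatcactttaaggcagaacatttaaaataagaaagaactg

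AP-2 dimers recognise GCCNNNGGC, a site that reads the same on both strands, and a variant with a longer spacer, GCCNNNNGGC. The 250 bases before the annotated starts were searched for both. RefSeq windows (GRCm38.p6) were held for 4 of the 5 members, and Tfap2c had none. There were 2 windows of Tfap2a, 1 of Tfap2b, 3 of Tfap2d and 1 of Tfap2e, too few to show a lack or an excess of a site. No window of the 4 members held GCCNNNGGC, which 13.7% of all 32851 windows held. The variant was in 1 window of Tfap2a, against 12.3% of all windows, and its letters are the capitals below. The Tfap2d window shown, at chr1:19102772-19103021, lies directly before Tfap2d-201. That of Tfap2b, at chr1:19211804-19212053, lies in an intron of Tfap2b-201 and directly before Tfap2b-202. Tfap2b-202 held 2.55% of the summed Tfap2b TPM, and the start of Tfap2b-201, the main transcript, had no window. The Tfap2a window, at chr13:40734921-40735170, lies in an intron of Tfap2a-203. It ends directly before Tfap2a-208, a transcript listed at 0 in all libraries. The Tfap2e window, at chr4:126736270-126736519, lies before the gene. These windows belong to the tandem pair, to the 2 members whose levels moved together, and to the member that was on in 2 libraries only. No factor's binding was measured.
Tfap2d window, plus strand: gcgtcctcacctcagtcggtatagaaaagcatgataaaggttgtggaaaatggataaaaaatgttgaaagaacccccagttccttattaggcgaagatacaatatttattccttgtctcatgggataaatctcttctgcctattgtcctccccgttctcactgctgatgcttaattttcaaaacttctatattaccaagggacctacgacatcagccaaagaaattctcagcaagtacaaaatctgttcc
Tfap2b window, plus strand: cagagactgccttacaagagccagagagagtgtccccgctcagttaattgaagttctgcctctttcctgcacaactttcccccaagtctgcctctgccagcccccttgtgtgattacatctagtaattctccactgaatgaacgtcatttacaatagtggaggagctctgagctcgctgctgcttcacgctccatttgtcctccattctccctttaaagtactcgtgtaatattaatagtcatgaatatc
Tfap2a window, minus strand: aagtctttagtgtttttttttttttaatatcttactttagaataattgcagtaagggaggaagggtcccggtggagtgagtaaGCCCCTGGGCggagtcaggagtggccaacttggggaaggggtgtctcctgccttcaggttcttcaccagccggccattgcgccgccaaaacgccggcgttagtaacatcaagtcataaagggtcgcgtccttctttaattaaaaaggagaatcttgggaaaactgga
Tfap2e window, minus strand: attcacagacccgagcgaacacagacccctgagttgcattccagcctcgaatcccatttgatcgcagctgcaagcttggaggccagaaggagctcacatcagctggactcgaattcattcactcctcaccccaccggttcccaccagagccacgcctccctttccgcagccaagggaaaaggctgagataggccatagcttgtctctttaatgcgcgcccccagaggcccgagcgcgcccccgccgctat

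Tfap2c and Tfap2d were the members at an appreciable level throughout, each at 1 TPM or more in all 15 libraries. Tfap2c was at 5.94 ± 2.02 TPM (mean ± SD, n = 15) and Tfap2d at 3.96 ± 1.82 TPM, and Tfap2c was the higher in 11 of 15 libraries, so the order of these neighbours was not fixed. Tfap2b, at 0.728 ± 0.363 TPM, was below both in every library. Tfap2a, at 0.221 ± 0.0960 TPM, was below Tfap2b in every library. Tfap2e does not fall in a stable place in this order. Its median was 0.0230 TPM, it was listed at 0 in 6 libraries, and it exceeded 6 TPM in AVP female 10 and vehicle female 15. Only Tfap2c and Tfap2d passed the filter of 1 TPM in at least 50% of a comparison's libraries, in females as in males.

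**Figure D1:**
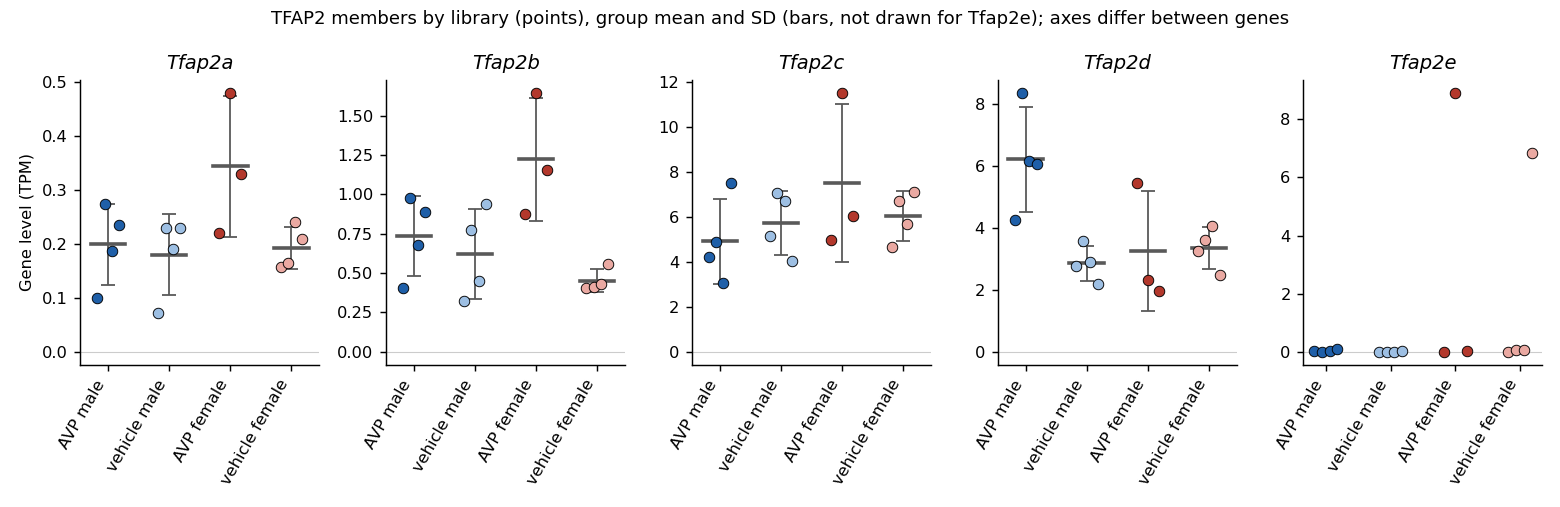
Level of each TFAP2 member (y axis, TPM, a separate scale for each gene) in the 15 libraries, as points by group, with the group mean and SD as bars except for Tfap2e. The AVP males stand above the vehicle males for Tfap2d, the AVP females above the vehicle females for Tfap2b, and 1 library in each female group is high for Tfap2e.

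Tfap2d was higher in AVP than in vehicle males, at 2.17 times the mean level, and this was the value that drew the family into view. It was at 4.26, 8.37, 6.16 and 6.07 TPM in AVP males 1, 2, 8 and 9, and at 2.77, 3.57, 2.89 and 2.20 TPM in vehicle males 4, 5, 12 and 13. The lowest AVP male stood above the highest vehicle male, so the groups did not overlap. On the log2(TPM + 0.5) scale the difference was 0.98 ± 0.21 (SE from limma, n = 4 and 4). This scale understates the change of genes at low levels. Without the library labelled vehicle male 12 the difference was 0.99, and leaving out single male libraries gave 0.83 to 1.13. For comparison, all AVP males stood above all vehicle males in 0.733% of the 15271 genes tested in males, 13.5% had an unadjusted p under 0.05 and 0.00655% an adjusted p under 0.05 (limma), which was 1 gene and no member of the family, the microRNA gene Mir6392, lower with AVP. Since the male values chose the family, nothing is read from the place of Tfap2d among those genes. The median log2 difference of all genes tested in males was -0.10, and after median-of-ratios scaling, which brought that median to -0.01, the difference of Tfap2d was 1.07.

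A second number in the labels, apart from the one used here to name the libraries, runs from 1 to 8 and from 13 to 20. The male difference of Tfap2d was 0.83 among the libraries of the first run (2 and 2) and 1.13 among those of the second (2 and 2). Since the male groups did not overlap, neither this split nor leaving out single libraries could turn the sign. These values are therefore no separate evidence for the difference.

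The male difference was divided between both transcripts. Tfap2d-201, the coding transcript, held 78.4% of the summed Tfap2d TPM of all libraries and Tfap2d-202 held 21.6%. Tfap2d-201 was at 2.73, 6.55, 4.56 and 4.63 TPM in the AVP males, against 1.49, 3.17, 2.60 and 1.72 TPM in the vehicle males. AVP male 1 lay below vehicle male 5, so the coding transcript alone overlapped between the groups, with a mean log2 difference of 0.89. Tfap2d-202 was at 1.53, 1.82, 1.60 and 1.44 TPM in the AVP males, against 1.29, 0.404, 0.284 and 0.476 TPM in the vehicle males. These values did not overlap, with a mean log2 difference of 0.99, and the highest vehicle male, 4, came near the lowest AVP male. The lowest value, 0.284 TPM, was that of the library labelled vehicle male 12. The share of all transcripts without overlap was not counted. As Tfap2d-202 is part of the gene level that chose the family, nothing is read from its separation. In females Tfap2d-202 ranged from 0.370 to 0.513 TPM with AVP and from 0.0355 to 1.64 TPM with vehicle. Vehicle female 7, at 1.64 TPM, thus reached the level of the AVP males. The share of Tfap2d-202 in the gene was 21.7% to 35.9% in AVP males and 9.83% to 46.4% in vehicle males, so the make-up of the gene overlapped where its level did not.

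**Figure D2:**
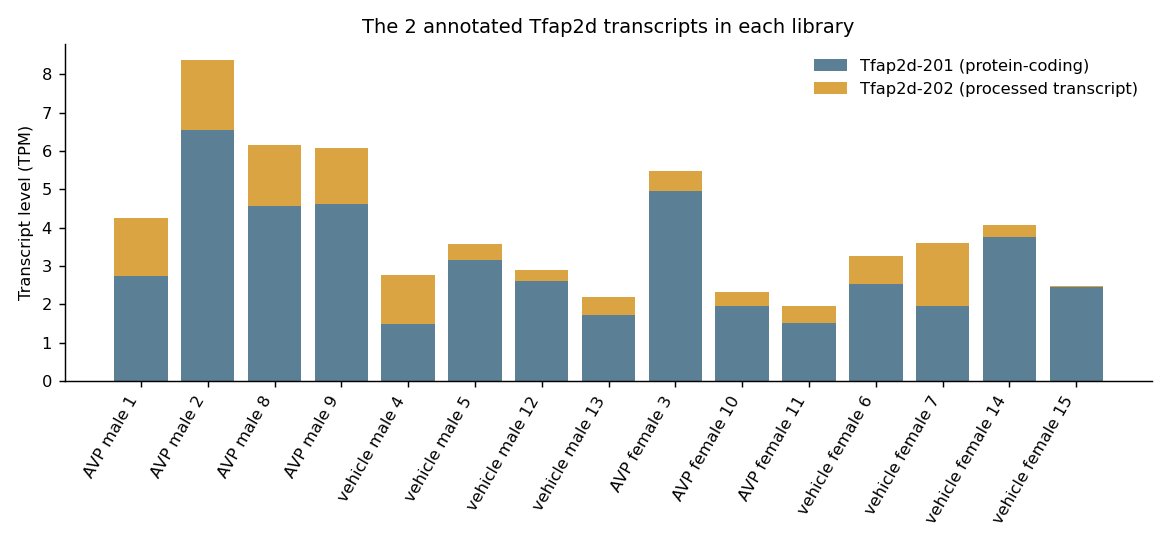
Level of the coding transcript Tfap2d-201 (lower part of each bar) and of the processed transcript Tfap2d-202 (upper part) in each of the 15 libraries, in TPM. Tfap2d-202 lies between 1.44 and 1.82 TPM in the AVP males and is below 1 TPM in most other libraries, vehicle male 4 and vehicle female 7 being the exceptions.

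The female comparison shared no library with the male one, though by the study's account it shared litters, and was tested. Tfap2d was at 5.47, 2.33 and 1.95 TPM in AVP females 3, 10 and 11, and at 3.25, 3.60, 4.07 and 2.48 TPM in vehicle females 6, 7, 14 and 15. AVP female 3 was the highest of the 7 libraries and AVP females 10 and 11 were the lowest. The difference on the log2 scale was -0.14 ± 0.32 (SE, n = 3 and 4, adjusted p = 0.999 by limma, exact two-sided permutation p = 0.686), so no difference was detected at this spread. The sign turned with single libraries. Without AVP female 3 the difference was -0.53 and the 2 remaining AVP females lay below all vehicle females, without AVP female 10 it was 0.01 and without AVP female 11 it was 0.11. Over all 15132 genes tested in females, 0% had an adjusted p under 0.05 and 4.51% an unadjusted p under 0.05. The first run of these numbers gave 0.61 (1 AVP and 2 vehicle females) and the second -0.49 (2 and 2). The female minus male difference of Tfap2d was -1.12 ± 0.39 (SE), and -1.13 without the library labelled vehicle male 12. It holds the male values that chose the family and is given without a test. Its SE treats the libraries as independent, although litters were shared between the sexes. The interaction reached an adjusted p under 0.05 in 0% of the 15078 genes tested across the 15 libraries.

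Between groups, the order of Tfap2d was AVP males at 6.21 ± 1.68 TPM (SD, n = 4), vehicle females at 3.35 ± 0.672 TPM (n = 4), AVP females at 3.25 ± 1.93 TPM (n = 3) and vehicle males at 2.86 ± 0.564 TPM (n = 4). Apart from the pair of male groups and AVP males against vehicle females, the ranges overlapped.

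Markers of the dorsal midbrain, the amygdala and the olfactory bulb were looked at beside these values. Of 9 dorsal midbrain markers, none reached 1 TPM in any library. En1, Pax7 and Sox14 were listed at 0 in 6, 7 and 13 libraries, and the list summed to 0.332 to 0.904 TPM in AVP males and 0.464 to 1.27 TPM in vehicle males. The mean log2 level of the amygdala list of 6 genes had r = 0.49 with Tfap2d, and -0.13 without the 2 libraries farthest from the median. The list summed to 272 to 352 TPM in AVP males and 273 to 317 TPM in vehicle males. Of its 5 genes tested in males 0 had an unadjusted p under 0.05. Within that list, Cyp26b1, which degrades retinoic acid, and the LIM-only gene Lmo3 followed Tfap2d over the 15 libraries (Pearson r = 0.77 and 0.74), a pair picked after their values were seen. The other 4, Rspo2, Etv1, Meis2 and Otp, had r of -0.18, -0.06, 0.10 and 0.09. Over the 15 libraries the 3 olfactory bulb markers had r = -0.22 with Tfap2d. Without AVP female 10 and vehicle female 15, the 2 libraries farthest from the median of that list, r was 0.85. It rested there on a summed level of only 0.822 to 3.62 TPM in the other 13 libraries. Without these same 2 libraries the amygdala list had r = 0.60 with Tfap2d, so these values depend on which libraries are left out. The part of these cell types in the male difference was not tested. In bulk tissue, fewer cells of a type and less RNA per cell cannot be told apart.

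The genes most like Tfap2d over the 15 libraries, among 15585 genes with a mean of at least 1 TPM, were Gm15387 (r = 0.86), Sst (0.86), Gm10699 (0.84), Upp2 (0.83) and Tcp1 (0.82). Sst encodes somatostatin, a peptide of GABAergic interneurons, Upp2 a uridine phosphorylase and Tcp1 a subunit of the cytosolic chaperonin. Gm15387 is a processed pseudogene whose reads may be shared with its parent gene. Sst was at 146 to 329 TPM in AVP males and 82.7 to 142 TPM in vehicle males, without overlap. Tcp1 (425 to 440 against 370 to 395 TPM) and Gm10699 (7.59 to 8.98 against 5.86 to 6.71 TPM) did not overlap either. Of all genes tested in males, 0.733% had all AVP males above all vehicle males. Gm15387 (790 to 901 against 685 to 811 TPM) and Upp2 (15.1 to 18.1 against 12.6 to 15.2 TPM) overlapped between the male groups. The correlations include the male difference of Tfap2d, so a separation of the male groups is in part built into the choice of these genes. After the mean of each group was subtracted, 0 of the 5 genes stayed among the 5 most alike, and 10 of the first 50 were shared. Sst kept r = 0.83 then and ranked 16.

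Tfap2c, the most abundant member, overlapped between AVP and vehicle in both sexes and varied together with progenitor genes of the cortex, among other lists. It was at 4.98, 11.5 and 6.02 TPM in AVP females 3, 10 and 11, and at 4.65, 6.72, 5.65 and 7.10 TPM in vehicle females 6, 7, 14 and 15. AVP female 10 was far above the rest, and the other AVP females lay inside the vehicle range. The difference was 0.22 ± 0.28 on the log2 scale (SE, n = 3 and 4, adjusted p = 0.999 by limma, exact permutation p = 0.629). Without AVP female 10 it was -0.11, so that library set the sign. In males it was at 3.04 to 7.50 TPM with AVP and 4.01 to 7.05 TPM with vehicle, a log2 difference of -0.24 ± 0.26 (SE, n = 4 and 4). Without the library labelled vehicle male 12 it was -0.16. The female minus male difference was 0.46 ± 0.41 (SE), and 0.38 without that library. Tfap2c-201, a coding transcript, held 56.1% of the gene. Tfap2c-206, also coding, held 20.4% but has no 31-base word of its own. Its level, and in part these shares, thus rest on how shared reads were divided between transcripts, and it is not compared.

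The genes most like Tfap2c over the 15 libraries were Pacsin3 (r = 0.92), Eomes (0.91), Slc25a10 (0.91), Rnd2 (0.90) and Spata24 (0.90). Eomes, the transcription factor of intermediate progenitors, ranged from 15.7 to 57.0 TPM and was highest in AVP female 10, as was Tfap2c. Rnd2, a small GTPase of migrating cortical neurons, ranged from 58.4 to 100 TPM. After group means were subtracted, 3 of the 5 were again among the 5 most alike. Over the 8 markers of radial glia and intermediate progenitors, the mean log2 level had r = 0.83 with Tfap2c (Spearman rho = 0.90, n = 15), and 0.77 without the 2 libraries farthest from the median. The same list had r = 0.83 after group means were subtracted, so the relation lay within groups. Within this list r ranged from 0.36 for Sox2 and 0.46 for Hes1 to 0.91 for Eomes. The markers of Cajal-Retzius cells had r = 0.83 with Tfap2c as well. Those of the thalamus had r = 0.71 and the AP-2 co-regulators listed below 0.65. The correlations are given as description, since all values of a library share its unknown depth and its dissection.

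Tfap2b was low but higher in every AVP female than in every vehicle female. It was at 0.874, 1.65 and 1.15 TPM in AVP females 3, 10 and 11, and at 0.406, 0.413, 0.433 and 0.557 TPM in vehicle females 6, 7, 14 and 15. The groups did not overlap. The mean was 2.71 times higher, a log2 difference of 0.84. That difference was 0.66 to 0.99 when single libraries were left out and 0.72 without AVP female 10 and vehicle female 15. The exact two-sided permutation p was 0.0571, the smallest that 3 against 4 libraries can give with this test, so it could not reach 0.05. Tfap2b lay under the filter. In the limma fit without a filter its adjusted p was 0.952 (unadjusted p = 0.00546), over all genes. Among the genes tested, 2.78% had all AVP females above all vehicle females, and among genes with a mean of 0.3 to 1 TPM, a range chosen after the level of Tfap2b was seen, 3.22% did. The log2 difference was 0.60 in the first run of library numbers and 0.92 in the second, where the lack of overlap fixed the sign. Tfap2b-201, its main coding transcript with 85.4% of the gene, was at 0.665 to 1.65 TPM against 0.312 to 0.413 TPM, again without overlap.

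In males Tfap2b ranged from 0.404 to 0.974 TPM with AVP and from 0.322 to 0.941 TPM with vehicle. These ranges nearly coincided, with a log2 difference of 0.15, and 0.08 without the library labelled vehicle male 12. The female minus male difference was 0.68, and 0.75 without that library.

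Tfap2a was at 0.220, 0.480 and 0.330 TPM in AVP females 3, 10 and 11, and at 0.157, 0.163, 0.239 and 0.208 TPM in vehicle females 6, 7, 14 and 15. AVP female 3 lay inside the vehicle range. The log2 difference was 0.28 (exact permutation p = 0.114), on a scale where the pseudocount of 0.5 exceeds the levels themselves. In males Tfap2a ranged from 0.0995 to 0.274 TPM with AVP and from 0.0709 to 0.229 TPM with vehicle, a log2 difference of 0.04, and 0.05 without the library labelled vehicle male 12.

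Meningeal markers, among other lists, moved with Tfap2a and Tfap2b. The 10 markers of the meninges, the membranes that cover the brain, summed to 121, 177 and 165 TPM in AVP females 3, 10 and 11 and to 84.8 to 97.2 TPM in the vehicle females, without overlap. Of the 9 tested in females, 6 were higher with AVP at an unadjusted p under 0.05, among them Dcn, Lum and Aldh1a2, where 4.51% of all genes had such a p, and 0 passed an adjusted p of 0.05 (limma). Col15a1 of the same list went the other way, at -0.44 in females and -0.74 in males on the log2 scale, and had r = -0.23 with Tfap2b. The median log2 difference of the list was 0.71, against -0.05 for all genes tested. Over the 15 libraries the mean log2 level of the list had r = 0.75 with Tfap2b (rho = 0.76) and 0.69 with Tfap2a (rho = 0.64). After group means were subtracted these were 0.63 and 0.65. Other lists were as close to Tfap2a, with r = 0.67 for thalamus, 0.65 for progenitor and 0.64 for Cajal-Retzius markers. The AP-2 targets listed below had r = 0.72 with it. With Tfap2b these 4 lists had r of 0.51, 0.54, 0.39 and 0.55. The red blood cell genes had r = 0.58 with Tfap2a and 0.59 with Tfap2b. In males the list summed to 84.9 to 157 TPM with AVP and to 51.2 to 170 TPM with vehicle, and like Tfap2b it overlapped.

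The summed levels of red blood cell and choroid plexus genes overlapped between the female groups. The 6 red blood cell genes summed to 5129 to 13658 TPM with AVP and to 2241 to 5707 TPM with vehicle. Of these, 5 of 5 tested were higher at an unadjusted p under 0.05, which 4.51% of all genes had in either direction. The 8 choroid plexus genes summed to 26.9 to 2288 TPM with AVP and to 8.24 to 963 TPM with vehicle. Of these, 2 of 5 tested were higher at such a p. In both lists 0 genes had an adjusted p under 0.05 (limma). The choroid plexus list varied as widely in males, at 8.99 to 640 TPM with AVP and 7.31 to 710 TPM with vehicle. Of the 8 surface ectoderm genes 0 passed the filter, and the keratins Krt5 and Krt14 stayed at 0.113 TPM or less and 0.228 TPM or less in all libraries. The part of meninges and blood in the female level of Tfap2b was not tested.

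Tfap2e, the olfactory bulb member, was present in 2 libraries and close to 0 in the others. It was at 8.92 TPM in AVP female 10 and at 6.86 TPM in vehicle female 15. In the other 13 libraries the highest value was 0.104 TPM, in AVP male 9, and 6 were listed at 0. Of each female treatment 1 library was thus high, and of the males none. The log2 difference of the female groups was 0.38 (exact permutation p = 0.8). It was -1.02 without AVP female 10 and 1.33 without vehicle female 15. Without both libraries it was -0.07, at levels of at most 0.0676 TPM. In males it was 0.09, and 0.08 without the library labelled vehicle male 12.

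The same libraries held the markers of olfactory bulb projection neurons. Cdhr1, a cadherin of mitral and tufted cells, was at 71.5 TPM in AVP female 10 and 60.1 TPM in vehicle female 15, against at most 1.27 TPM elsewhere. Tbx21, their transcription factor, was at 4.31 and 2.92 TPM, against at most 0.247 TPM elsewhere. Barhl2 separated the libraries less well, at 3.53 and 2.10 TPM, against up to 2.13 TPM elsewhere. Together the 3 markers summed to 79.3 and 65.2 TPM in these libraries and to at most 3.62 TPM in the other 13.

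The genes ranked most like Tfap2e by the same measure were Gm12688, Prss56, Mybpc1, Cdhr1 and Th. That ranking picks genes that are high in the same 2 libraries, so their levels there are a description of the choice. Prss56, a serine protease, was at 8.63 and 5.89 TPM in AVP female 10 and vehicle female 15 and at most at 0.203 TPM elsewhere. Mybpc1, a myosin-binding protein, was at 12.4 and 11.9 TPM, against at most 0.366 TPM. Th, tyrosine hydroxylase, the first enzyme of dopamine synthesis, was at 8.51 and 6.70 TPM, against at most 0.756 TPM. Since 2 libraries stand apart from 13, no pooled correlation is given for Tfap2e. Over the other 13 libraries the r of these 5 genes with Tfap2e lay between -0.48 and 0.08. The neighbours of Tfap2e on chromosome 4 did not share the pattern. Psmb2, a proteasome subunit 6291 bases away, was at 156 and 160 TPM in these libraries, within its range of 150 to 185 TPM, and Ncdn, 7509 bases away on the other side, at 109 and 110 TPM, within 60.8 to 121 TPM.

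**Figure D3:**
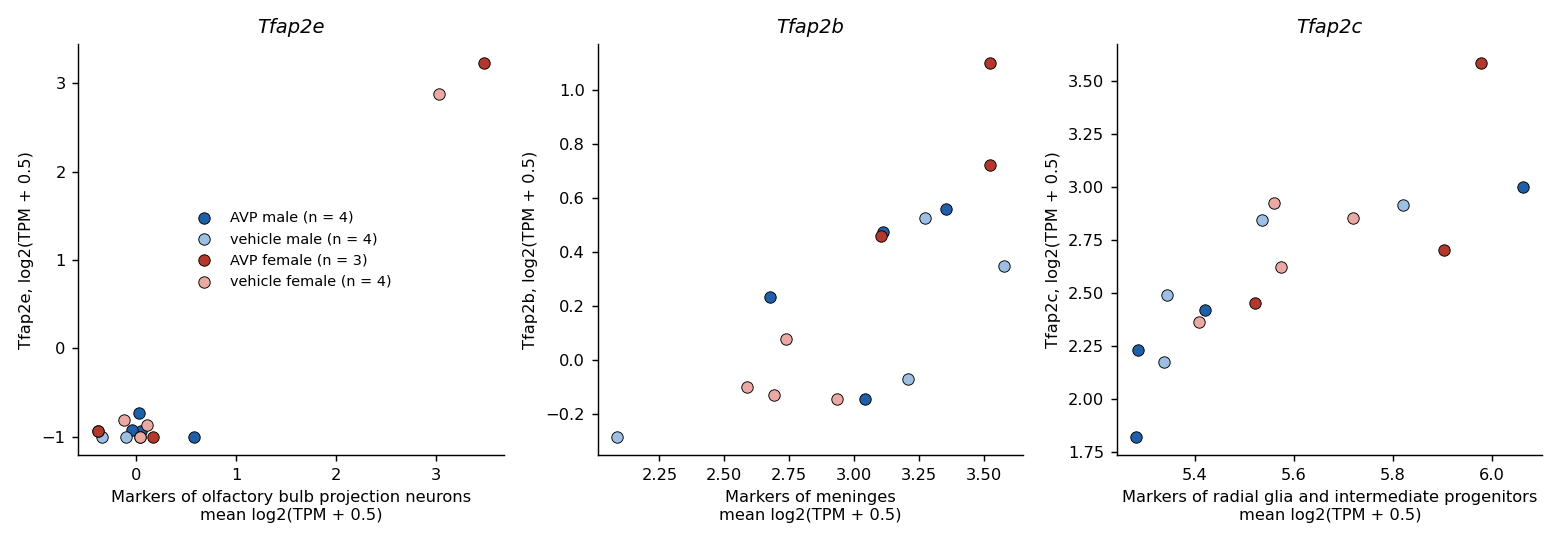
Level of Tfap2e, Tfap2b and Tfap2c (y axes, log2(TPM + 0.5)) against the mean level of 3 olfactory bulb, 10 meningeal and 8 progenitor markers (x axes, same scale) in 15 libraries, coloured by group. In the left panel AVP female 10 and vehicle female 15 stand alone at the upper right. In the other panels r is 0.75 for Tfap2b and 0.83 for Tfap2c, and no line was fitted. Libraries alike in meningeal markers can differ in Tfap2b. Vehicle male 5 and AVP female 10 lie at 3.58 and 3.53 on that x axis, with Tfap2b at 0.775 and 1.65 TPM.

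Among the members, Tfap2a and Tfap2b varied together most closely, and Tfap2d with none of the others. The correlations over the 15 libraries are part of the rule that chose the family and are given without a test. Tfap2a and Tfap2b had r = 0.89 (rho = 0.88), and 0.79 without the 2 libraries farthest from the median of Tfap2a. Tfap2c had r = 0.57 with Tfap2a and 0.37 with Tfap2b, but 0.27 and -0.03 without the 2 farthest libraries, so these rest on those libraries. Tfap2d had r = -0.15 with Tfap2a, -0.04 with Tfap2b and -0.35 with Tfap2c. The tandem pair Tfap2d and Tfap2b thus showed no shared variation over these libraries. After group means were subtracted, Tfap2a and Tfap2b had r = 0.90 and Tfap2c and Tfap2d -0.12.

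**Figure D4:**
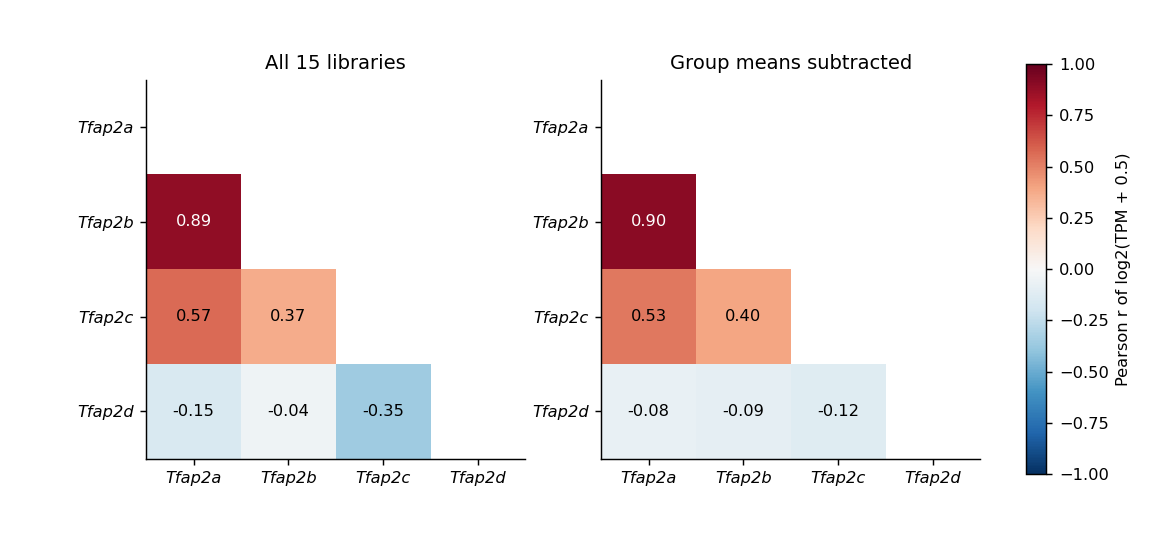
Pearson r of log2(TPM + 0.5) between pairs of Tfap2a, Tfap2b, Tfap2c and Tfap2d over 15 libraries, on the left as measured and on the right with the mean of each of the 4 groups subtracted. Tfap2a and Tfap2b are at 0.89 and 0.90, and the pairs with Tfap2d lie between -0.35 and -0.04 on the left and between -0.12 and -0.08 on the right.

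For the co-regulators of AP-2 no difference passed the threshold in either sex. Of the 10 listed, 9 were tested in each sex, and 0 had an adjusted p under 0.05. In females 0 of 9 had an unadjusted p under 0.05, and the median log2 difference was -0.03, against -0.05 for all genes. In males 1 of 9 did, where 13.5% of all genes did, so the share was near the background, and the median was -0.07, against -0.10 for all genes. That gene was Yeats4 (GAS41), a chromatin reader, at a log2 difference of 0.24 ± 0.06 (SE, unadjusted p = 0.00328, adjusted p = 0.304, limma). Without the library labelled vehicle male 12 it was 0.24 and again the only 1 of 9, against 8.14% of all genes. Yeats4 had r = 0.71 with Tfap2d over the 15 libraries. The study had already named both among the genes that differed in these males, so the p of Yeats4 is no separate evidence. The repressors Kctd1 and Kctd15 ranged from 14.6 to 21.2 and from 56.1 to 103 TPM, and Cited2, the most abundant of the CITED coactivators, from 40.7 to 53.9 TPM.

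Of 13 genes reported as AP-2 targets, 10 were tested in each sex and 0 had an adjusted p under 0.05. In females 2 of 10 were higher with AVP at an unadjusted p under 0.05, which 4.51% of all genes had in either direction. These were Cdh1, E-cadherin (log2 difference 0.77 ± 0.25, SE, adjusted p = 0.999, limma), and Neurog2, a proneural factor (0.50 ± 0.21, adjusted p = 0.999, limma). In males 1 of 10 had such a p, a share near the 13.5% of all genes. It was Ecm1, a secreted matrix protein (-0.83 ± 0.17, unadjusted p = 0.000952, adjusted p = 0.304, limma), at -0.79 without the library labelled vehicle male 12. The median log2 difference of the list was 0.05 in females and -0.07 in males. Over the 15 libraries the mean log2 level of the list had r = 0.89 with Tfap2c, 0.80 without AVP female 10 and vehicle female 15, and -0.28 with Tfap2d. The list holds Eomes and Neurog2, which are also on the progenitor list.

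Genes next to the members differed in level from them. Bmp7, a growth factor gene 309389 bases beyond Tfap2c, ranged from 4.29 to 17.3 TPM and was highest in AVP female 10, as Tfap2c was. Fam209, on the other side of Tfap2c, stayed at 1.38 TPM or less. Defb41, the nearest coding gene before Tfap2d, was listed at 0 in all libraries, and Pkhd1, beyond Tfap2b, stayed at 0.0399 TPM or less. Gcnt2, beyond Tfap2a, was at 3.87 to 5.50 TPM with male and female log2 differences of 0.04 and -0.06, and Ofcc1, on its other side, stayed at 0.282 TPM or less. The antisense gene Gm15825, which overlaps the start of Tfap2d on the opposite strand, stayed at 0.531 TPM or less, and the reads were counted by strand. Among males its mean ± SD was 0.220 ± 0.164 TPM with AVP and 0.0667 ± 0.133 TPM with vehicle (n = 4 each), and the SD of the vehicle males exceeded their mean.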

How the data were processed

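mRNA was sequenced from 15 dorsal forebrains on day 18 of gestation. The authors trimmed adapters with Trim Galore (0.4.1) and quasi-mapped reads, by strand, to GENCODE M16 transcripts (GRCm38) with Kallisto (0.43.1). The deposited table names no unit, but every library has the same total of 1e+06, so the deposited values were read as TPM from the authors. Transcript TPM were summed to genes with GENCODE M21, leaving out 404 transcripts without a gene (0.154% to 0.199% of TPM). Counts and depth are not given, so no count model or counting interval was used. A gene entered a test when 50% or more of the libraries compared reached 1 TPM. The test was limma 3.58.1 on log2(TPM + 0.5) (R 4.3.3, mean-variance trend, Benjamini-Hochberg, threshold 0.05), within each sex with treatment as the only term, and over all 15 libraries for the interaction. Scripts were tested on simulated data. Members in females also had an exact permutation test. The members and all lists were chosen with earlier results of these data known. Named were the 5 members, the 5 genes most correlated with each member of at least 1 TPM mean, list genes with an unadjusted p under 0.05 (at most 4 per list and sex) and the nearest coding genes. Marker lists are given as sums and as mean log2 values. Alternatives were other pseudocounts, filters and scalings, no trend, the run of library numbers, 1 fit of all libraries, coding transcripts only and leaving out libraries. Figures were drawn with matplotlib 3.10.9.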

Additional observations from a re-analysis of the deposited data

Results flagged for a closer look

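In each group of 4 libraries, the gap of the highest or lowest library to its neighbour was set against the range of the group, for the 5 members and 2 Tfap2d transcripts. Of 21 groups examined, 2 stood out, where chance gives about 1 in 20. Tfap2e was at 6.86 TPM in vehicle female 15, far from the other vehicle females. Tfap2e was at 0.0235 TPM in vehicle male 13 and listed at 0 in the other vehicle males, a gap that is as small as the values themselves. AVP female 10, with the other high level of Tfap2e, belongs to a group of 3 and was not examined this way.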

How the results depend on the processing

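Of 206 values under alternatives other than leaving out a single library, 194 kept to their main value. When single libraries were left out, 256 kept to it, 11 moved and 3 reversed. A count kept if equal or within 1.5 times, and a tested difference if its sign and side of the 0.05 threshold held. Untested differences had to stay within the SD inside groups, and correlations within the 95% interval of the main r. These are loose criteria where an adjusted p is far above 0.05. In males 1 gene passed an adjusted p of 0.05; the count was 0 with a pseudocount of 1, a filter of 5 TPM, the run of library numbers, 1 fit of all libraries or coding transcripts only, and 2 without the trend. With a pseudocount of 0.1 the female log2 difference was 0.57 for Tfap2a and 1.23 for Tfap2b, the male one of Tfap2e was 0.33, and the female minus male difference was 0.46 for Tfap2a and 0.98 for Tfap2b. With a pseudocount of 1 the female one of Tfap2b was 0.60. These are low genes, for which the pseudocount sets the size of a log2 difference.

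Leaving out each library in turn gave 0 to 6 genes past the threshold in females, 0 to 6 in males and 0 to 1 for the interaction. The count in females was 6 without vehicle female 15 and 1 without vehicle female 7 or AVP female 11. In males it was 6 without AVP male 2, 5 without AVP male 8 or 9, and 0 without AVP male 1 or vehicle males 5, 12 or 13. The 1 for the interaction came without vehicle male 4. The female log2 difference ranged from -0.11 to 0.45 for Tfap2c and from -0.53 to 0.11 for Tfap2d. The male difference of Tfap2d ranged from 0.83 to 1.13, and its sign could not turn because the groups did not overlap. Leaving out AVP female 10 and vehicle female 15 together, and refitting the gene lists without vehicle male 12, were chosen after seeing the data.

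No paired analysis was possible because the labels number the libraries without repeats across the groups. With 3 and 4 female libraries and unknown depth, small differences of members under 1 TPM could not be detected. Tfap2a, Tfap2b and Tfap2e had no limma test under the filter of 1 TPM.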

Other observations

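The libraries with Tfap2e differed from the rest in genes of other lists too. Erbb3, a neuregulin receptor, was at 2.58 TPM in AVP female 10 and 2.13 TPM in vehicle female 15, against at most 0.211 TPM in the other 13 libraries. Igfbp5, a binding protein of insulin-like growth factors, was at 110 and 78.4 TPM, against at most 35.3 TPM, and Calb2, the calcium-binding protein calretinin, at 87.2 and 54.0 TPM, against at most 28.2 TPM. These genes were picked after their values were seen. Etv1 was at 36.7 and 24.4 TPM, against at most 22.9 TPM. Values of these libraries for Tfap2d were 2.33 and 2.48 TPM, in the lower part of the female range.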
